A study of Mus musculus with 42 samples.

Results

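The epithelial junction and surface genes measured here were Epcam, Spint2, Cldn3, Cldn4, Cldn7, Jup, Pkp3, Perp, Rab25 and Muc1. They were taken by name, as genes that epithelial cells use to adhere to each other, to seal the space between them and to equip the apical surface, and were 10 of the 15096 genes named on the array. Each was read by 1 probe. RNA of 21 mouse mammary tumours was hybridised to 42 two-colour arrays, 2 dye-swapped arrays per tumour, against a universal mouse reference RNA. All 21 tumours descended from neoplasms of FVB/N-Tg(WapMyc)212Bri mice, which carry c-Myc under the Wap promoter, active in the secretory epithelium of the mammary gland. Passage through living mice with selection had given a glandular line, a pair of solid or comedo lines that did or did not metastasise to the lung, and a line of spindle-shaped (spindloid) cells. Every tumour thus shares the transgene origin, and no tissue free of the transgene was among the samples analysed here. The labels give each array's tumour but not its line, so the tumours are named by number, each is 1 sample, and no growth pattern could be compared with another.

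Epithelial sheets are held together by a junctional complex. Tight junctions built from claudins seal the apical end, adherens junctions couple cadherins to actin through catenins, and desmosomes couple desmosomal cadherins to keratin filaments through plakoglobin and plakophilins. The apical surface carries mucins, and trafficking proteins such as Rab25 return membrane proteins to it. In the mammary gland these genes mark the epithelium, and they are lowered in carcinoma cells that take on a mesenchymal form, where the E-box CAGGTG is bound by repressors of the Snail and Zeb families.

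Promoter windows of 250 bases before to 50 bases after the transcription start were found for 8 of the 10 genes in RefSeq's annotation of GRCm38.p6. Cldn7 has windows at 2 starts, which makes 9 windows. The letters CAGGTG, or CACCTG for the other strand, were present in windows of 7 of the 8 genes, in 7 of the 9 windows. The same letters were in 20.2% of all 32851 mouse windows, and in 23.1% of the 14240 windows whose GC content lay in the range of these genes, 52.0% to 69.3%. Windows of Epcam, Spint2, Cldn4, Rab25 and Muc1 and that of the downstream Cldn7 start had 2 matches or more, with 3 in Spint2, and Cldn3 had 1. The letters were in neither the Jup window nor that of the upstream Cldn7 start. The Grainyhead letters AACCGGTT, which read the same on both strands, were in none of the 9 windows and in 0.146% of all windows. A match is a run of letters and not a measured binding site. The windows below belong to Epcam and Spint2, which differed most clearly between tumours, and to Cldn7 and Cldn3, the claudins whose lowest tumours overlapped with theirs. They are written 5′ to 3′ on the strand of the gene, with CAGGTG and CACCTG in capitals.
Epcam, chr17:87635729-87636028, plus strand: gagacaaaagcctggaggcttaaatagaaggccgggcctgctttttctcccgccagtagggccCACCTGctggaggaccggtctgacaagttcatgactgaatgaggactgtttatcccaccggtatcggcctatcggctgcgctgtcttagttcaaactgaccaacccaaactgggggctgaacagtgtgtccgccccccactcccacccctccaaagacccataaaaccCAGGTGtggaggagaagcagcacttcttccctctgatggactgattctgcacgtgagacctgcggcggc
Spint2, chr7:29281928-29282227, minus strand: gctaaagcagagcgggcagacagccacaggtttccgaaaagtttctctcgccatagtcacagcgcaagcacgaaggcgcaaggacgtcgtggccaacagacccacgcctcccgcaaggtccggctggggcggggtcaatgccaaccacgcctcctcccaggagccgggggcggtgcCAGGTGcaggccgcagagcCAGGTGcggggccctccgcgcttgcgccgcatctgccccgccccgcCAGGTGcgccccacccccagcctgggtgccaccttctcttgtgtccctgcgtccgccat
Cldn7, chr11:69965171-69965470, plus strand: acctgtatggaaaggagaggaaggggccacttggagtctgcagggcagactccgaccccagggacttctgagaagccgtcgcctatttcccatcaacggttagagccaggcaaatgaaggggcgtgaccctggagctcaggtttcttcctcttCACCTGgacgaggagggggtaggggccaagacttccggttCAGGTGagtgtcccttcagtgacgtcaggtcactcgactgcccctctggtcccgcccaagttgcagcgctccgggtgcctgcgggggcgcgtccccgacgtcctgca
Cldn3, chr5:134985964-134986263, plus strand: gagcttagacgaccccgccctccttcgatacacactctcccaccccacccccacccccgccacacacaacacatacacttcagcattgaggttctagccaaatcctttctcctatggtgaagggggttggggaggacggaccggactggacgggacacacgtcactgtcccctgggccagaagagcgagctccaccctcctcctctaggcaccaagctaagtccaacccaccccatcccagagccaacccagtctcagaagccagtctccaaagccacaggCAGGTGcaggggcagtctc
In the Epcam window the matches began at bases -187 and -19 relative to the start, and in the Spint2 window at -74, -55 and -9. Those of Cldn7 began at -97 and -57, and the Cldn3 match lay after the start, from base 31. Cldn3 and Cldn4 neighbour each other on chromosome 5, and the other 8 genes have neighbours outside the set.

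Values are log2 ratios on the deposited scale, turned so that both arrays of a tumour point the same way. The sign of all tumours together was set so that Myc is positive. That sign is an assumption, so "above 0" means above the reference RNA only if it holds, while differences between tumours in size do not depend on it. With the opposite sign every order given here turns round, and highest and lowest tumours change places. Arrays gave 8600 to 21328 values over 22800 probes. In 1 tumour, 656, the 2 arrays did not oppose each other before turning (r = 0.07 over probes), against -0.56 to -0.06 in the other 20 tumours. Medians of tumour means over all probes ran from -0.76 in tumour 660 to 0.71 in tumour 669, and centring the arrays on their medians changed calls that are named below. Krt8, the keratin that defines simple epithelium, lay above 0 in all 21 tumours, between 0.74 and 3.24. Csn2, which encodes beta-casein, was above 0 in 17 of 21 tumours.

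Of the 10 genes, 4 differed between tumours by limma's moderated F test, with p-values adjusted over all 9407 tested probes: Epcam, Spint2, Perp and Muc1. Among all tested probes, 19.2% differed at the same threshold of 0.05. At an unadjusted p below 0.05 there were 7 of the 10 genes, with Cldn3, Cldn7 and Jup added, against 32.3% of all probes. The test sets the spread between tumours against the difference between the 2 arrays of a tumour, so its p-values measure hybridisation error and not the spread between animals of 1 line. Tumour means had a standard deviation of 1.25 for the 10 genes and 0.82 for all tested probes, as medians over probes, and a median range of 5.38 and 3.10. The standard deviation between the arrays of a tumour had a median of 0.83 for the 10 genes and 0.91 for all tested probes. The medians describe a chosen set and carry no test.

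**Figure D1:**
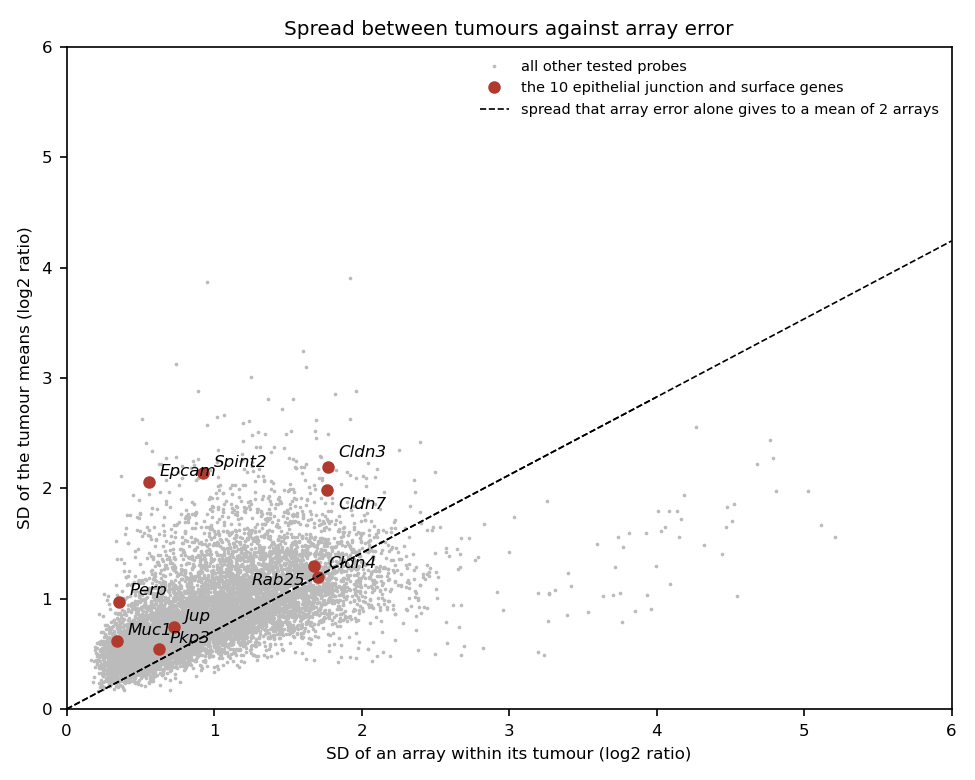
Standard deviation of the tumour means (vertical axis, log2 ratio) against the standard deviation between the arrays of a tumour (horizontal axis, log2 ratio) for the 10 genes in red and all other tested probes in grey. The dashed line is the spread that array error alone gives to a mean of 2 arrays: Epcam, Spint2, Perp and Muc1 lie well above it, Cldn3 and Cldn7 are as variable between tumours as Spint2 but noisier between arrays, and Cldn4, Rab25 and Pkp3 lie close to it.

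Epcam encodes a membrane glycoprotein that lets epithelial cells adhere to each other and that binds claudin-7. Its tumour means ran from -3.13 in tumour 646 through a median of 1.55 to 3.69 in tumour 667, each with a standard error of 0.41 (n = 2 arrays). The range is 112-fold, and the test gave F = 25.0 and an adjusted p of 1.8e-08, rank 13 among the 9407 probes. The intraclass correlation, the share of the variance that lies between tumours, was 0.93. The 2 arrays read -1.76 and -4.49 in tumour 646, -3.01 and -2.05 in tumour 647, -2.52 and -1.75 in tumour 649, -1.15 and -0.95 in tumour 673, and 0.07 and -0.10 in tumour 644. In the other 16 tumours every array lay above 0, between 0.71 and 3.84. Of the 210 pairs of tumours, 84 differed at an adjusted p below 0.05 over all probes and pairs, against 2.03% of all such comparisons. Tumours 646 and 647 each differed from 17 other tumours, 649 and 673 from 16 and tumour 644 from 10. No tumour differed from its neighbour in the order of Epcam, where the largest step was 1.29, and the smallest difference called was 2.20. After centring on the median of all probes Epcam ran from -2.63 in tumour 646 to 3.53 in tumour 656. Among the 8 tumours of slide run 3 its adjusted p by the F test was 3.9e-04. What is called a slide run here is a block of running numbers in the array titles. The labels do not say what these numbers stand for.

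Spint2 encodes a Kunitz-type inhibitor of membrane-anchored serine proteases. Its tumour means ran from -3.10 in tumour 649 through a median of 1.77 to 3.83 in tumour 667 (standard error 0.64), a 122-fold range with F = 11.1 and an adjusted p of 1.2e-05. Its arrays read -4.42 and -1.79 in tumour 649, -1.60 and -3.93 in tumour 646, -3.75 and -1.58 in tumour 647, -0.75 and -1.68 in tumour 673, and -0.33 and 0.06 in tumour 644. These are the tumours with the lowest Epcam, and the other 16 tumours had means above 0. Pairs that differed numbered 60 of 210, with 16 each for tumours 646, 647 and 649, and the smallest difference called was 3.44. After the same centring Spint2 ran from -3.35 in tumour 649 to 3.27 in tumour 667, and in run 3 alone its adjusted p was 0.00398. Tumours 644 and 673 differed from 4 and 8 other tumours in Spint2, against 10 and 16 in Epcam.

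**Figure D2:**
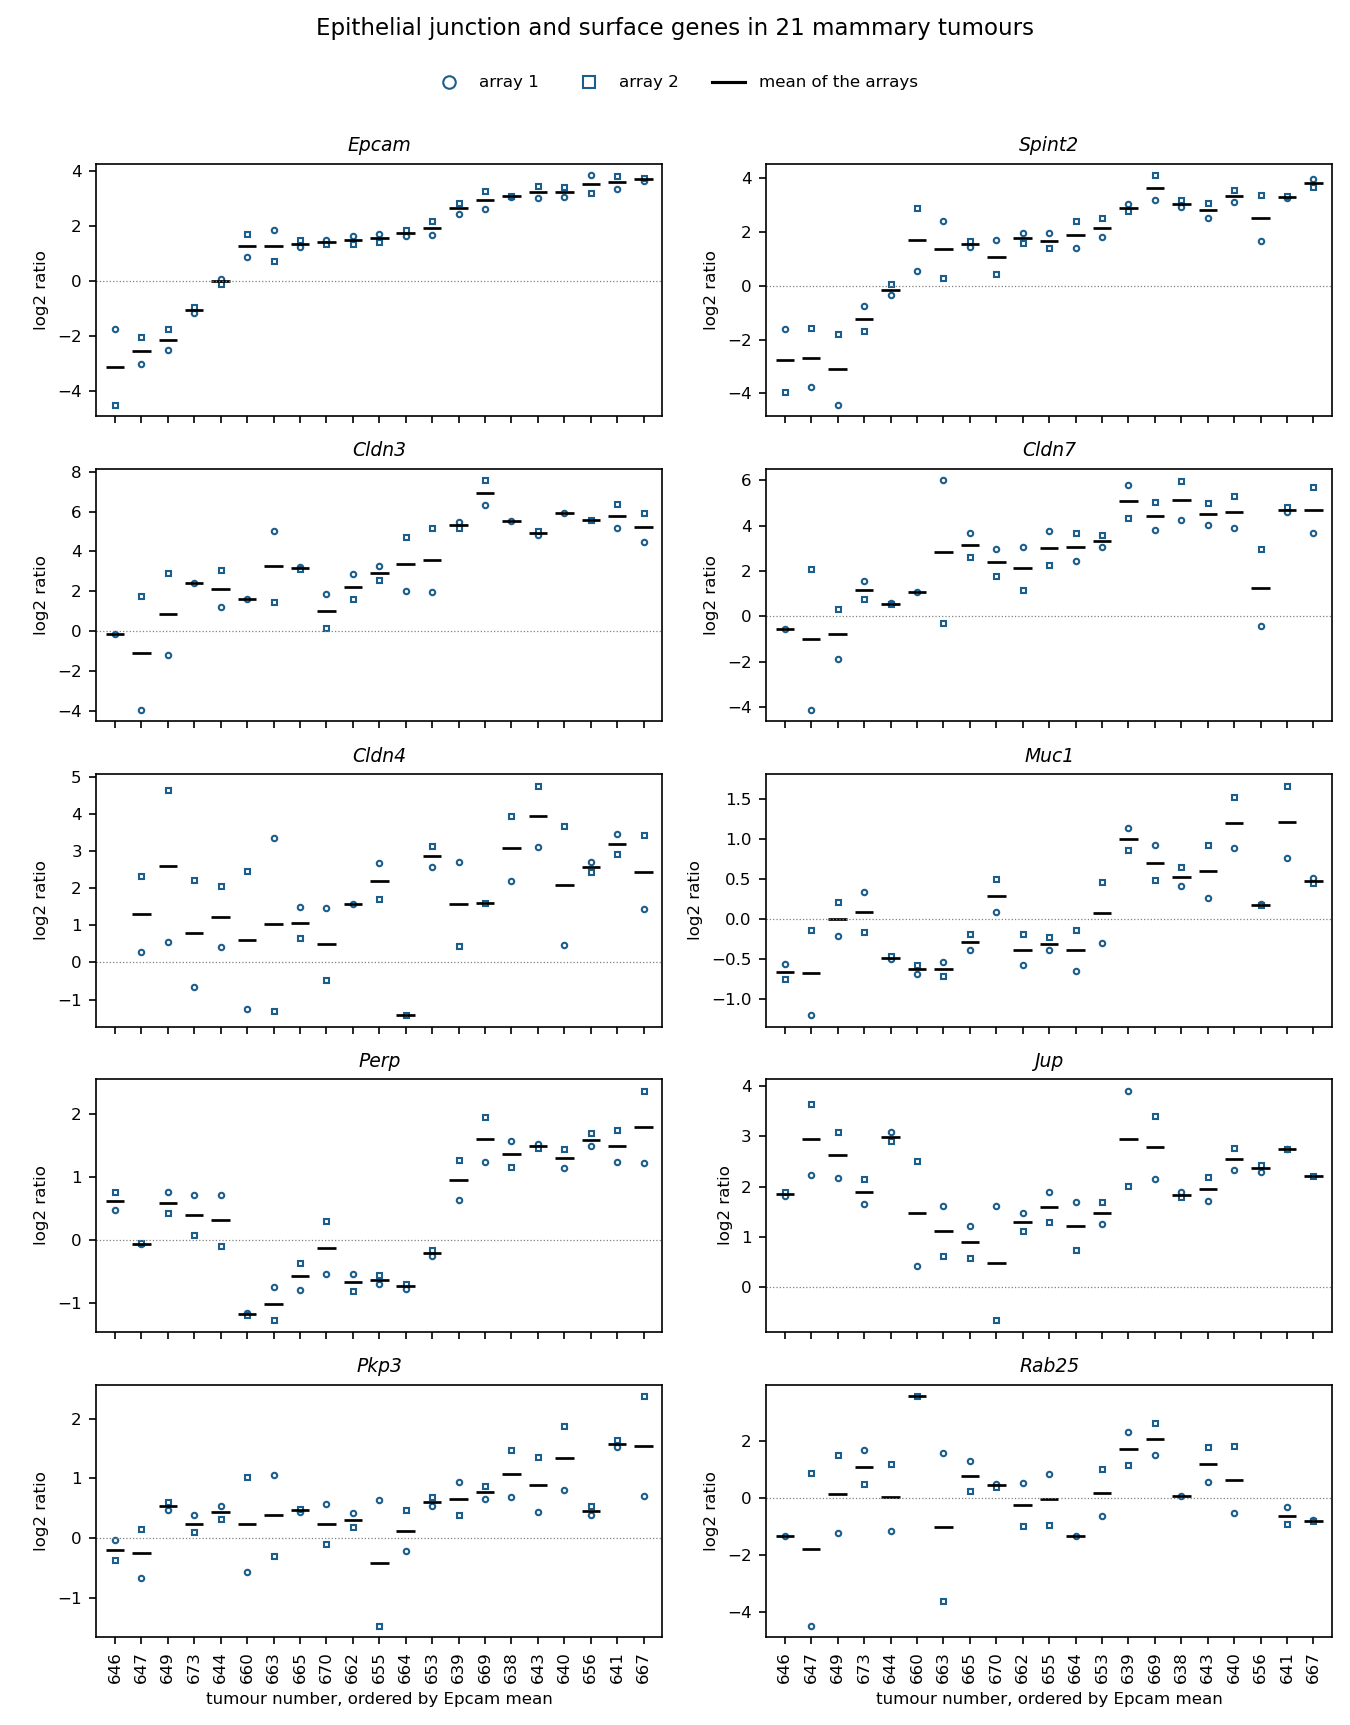
Log2 ratio of each gene (vertical axes, own scale per panel) in the 21 tumours, ordered from left to right by their Epcam mean; circles and squares are the 2 arrays of a tumour and bars their mean. Epcam and Spint2 lie below 0 in tumours 646, 647, 649, 673 and 644. Cldn3 and Cldn7 are low in most of the same tumours, with wide gaps between arrays. Perp is lowest in tumours 660 to 664 in the middle of the order, and Jup is also lowest in the middle.

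The claudins, the strand-forming proteins of tight junctions, had wide ranges and wide gaps between arrays. Cldn7 means ran from -1.01 in tumour 647 through a median of 3.03 to 5.12 in tumour 638 (standard error 1.18 for a mean of 2 arrays), with an adjusted p of 0.0743. Cldn3 means ran from -1.10 in tumour 647 through 3.26 to 6.96 in tumour 669 (standard error 1.17), with an adjusted p of 0.0638. Cldn3 had values on 36 arrays and both arrays in only 15 tumours. It was above 0 in 19 of 21 tumours.

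For both genes the arrays lay far apart in a few tumours. Cldn7 read -4.12 and 2.10 on the arrays of tumour 647, and Cldn3 read -3.96 and 1.75 there. In tumour 663 the Cldn7 arrays gave 6.005 and -0.28 and the Cldn3 arrays 5.04 and 1.47. Without the first array of tumour 663 the adjusted p was 0.0129 for Cldn7 and 0.0392 for Cldn3, and without the second 0.0148 and 0.04998. Leaving out the second array of tumour 647 gave 0.0121 for Cldn7 and 0.0144 for Cldn3. Cldn3 also passed without the second array of tumour 649 (0.0412). It passed without the second array of tumour 660 (0.0448) too, where Cldn3 had no value on that array, and 2867 of all probes then differed. With all of tumour 663 left out the values were 0.0166 for Cldn7 and 0.0445 for Cldn3, and with all of tumour 647 left out Cldn7 gave 0.0440.

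Centring the arrays on the median of all their probes gave an adjusted p of 0.0165 for Cldn7 and 0.0191 for Cldn3. Centring on the median of the tested probes gave 0.0167 and 0.0163. With quantile normalisation Cldn7 reached 0.00603. With dye orientation, as inferred from the turning of the arrays, fitted as a covariate, Cldn3 gave 0.0120 and Cldn7 0.0205. The dye effect, read between arrays of opposite orientation in the same tumour, had a mean of 0.62 for Cldn3 and 0.53 for Cldn7. Its part in the gaps between the arrays of single tumours was not tested. The call for these 2 claudins thus turns on scale, on dye orientation and on single arrays. Their lowest tumours overlapped in part with those of Epcam. Of the 5 tumours lowest in Cldn7, 4 were among the 5 lowest in Epcam, and of those lowest in Cldn3, 3 were. Tumours 646 and 660 were among the 5 lowest in both claudins with a value on 1 array each. Tumour 656 went the other way for Cldn7, with -0.41 and 2.96 on its arrays, against 3.84 and 3.17 for Epcam.

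Cldn4 lies beside Cldn3 in the genome and encodes another claudin of simple epithelia. Its tumour means ran from -1.42 in tumour 664 through 1.59 to 3.94 in tumour 643 (standard error 1.13), it had no value in tumour 646, and its adjusted p was 0.736. The arrays of 1 tumour differed as much as the tumours did, as in tumour 649 with 0.56 and 4.64. No pair of tumours differed in Cldn4 or in Cldn7 by limma's contrasts, with 5 of 190 and 44 of 210 pairs at an unadjusted p below 0.05. For Cldn3 2 pairs did, those of tumour 647 with tumours 641 and 669, by at least 6.89.

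The plaque genes of desmosomes did not pass the test. Jup, which encodes plakoglobin of desmosomes and adherens junctions, was above 0 in all 21 tumours, from 0.49 in tumour 670 through 1.90 to 3.00 in tumour 644 (standard error 0.52), with an adjusted p of 0.152. Tumours 644, 647 and 649, which were among the 5 lowest in Epcam, had Jup means of 3.00, 2.94 and 2.64. Tumours 646 and 673, also among those 5, had 1.85 and 1.90, near the median. The 5 lowest tumours in Jup shared none with those of Epcam. Pkp3, which encodes plakophilin 3 of the desmosomal plaque, ran from -0.41 in tumour 655 through 0.46 to 1.58 in tumour 641 (standard error 0.45), with an adjusted p of 0.376. The 5 highest tumours in Pkp3 shared 4 with those of Epcam, and the 5 lowest shared 2. No pair of tumours differed by limma's contrasts in either gene, where 31 and 16 of 210 pairs had an unadjusted p below 0.05. Without the second array of tumour 660 the adjusted p of Jup was 0.0482.

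Perp encodes a membrane protein of desmosomes that p53 and p63 induce. Its means ran from -1.17 in tumour 660 through 0.40 to 1.79 in tumour 667 (standard error 0.29), a 7.78-fold range with F = 10.9 and an adjusted p of 1.3e-05, and 66 of 210 pairs differed. The arrays of its lowest tumours lay close together, at -1.15 and -1.19 in tumour 660, -0.74 and -1.27 in tumour 663 and -0.77 and -0.70 in tumour 664. None of the 5 tumours lowest in Perp (660, 663, 664, 662 and 655) was among the 5 lowest in Epcam, and their Epcam means were 1.27, 1.28, 1.74, 1.49 and 1.55. At the other end 4 of the 5 tumours highest in Perp (667, 656, 641 and 643) were among the 5 highest in Epcam.

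The scale of the arrays moved with Perp. The same 5 tumours had medians over all probes of -0.76, -0.58, -0.41, -0.37 and -0.25. After centring on the median of all probes, Perp ran from -0.58 in tumour 665 to 1.61 in tumour 656 with a standard error of 0.51 and an adjusted p of 0.211. Centring on tested probes gave 0.0657 and quantile normalisation 0.391, and no pair of tumours differed after centring on all probes. By slide run the median tumour mean of Perp was 1.12 in run 1 (4 tumours), -0.63 in run 2 (5 tumours) and 1.04 in run 3 (8 tumours). Fitting the run as a block left Perp at 9.3e-04, while within runs 1, 2 and 3 alone its adjusted p was 0.609, 0.432 and 0.201.

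Muc1, the transmembrane mucin of the apical surface, had the narrowest range of the 10 genes. It ran from -0.67 in tumour 647 through 0.08 to 1.22 in tumour 641 (standard error 0.29), a 3.70-fold range with F = 4.64 and an adjusted p of 0.00404, and 19 of 210 pairs differed. Of the 5 tumours lowest in Muc1, 3 were among the 5 lowest in Epcam (644, 646 and 647), and the other two were 660 and 663. Its adjusted p was 0.613 and 0.399 after centring on all and on tested probes, 0.713 after quantile normalisation, and 0.124 when probes with both arrays in 2 tumours or more were tested. After centring its range was 1.56 with a standard error of 0.40, and no pair differed. Within runs 1, 2 and 3 alone the adjusted p of Muc1 was 0.340, 1.000 and 0.441.

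Rab25, a small GTPase of apical recycling in epithelial cells, ran from -1.81 in tumour 647 through 0.11 to 3.58 in tumour 660, where 1 array had a value. The standard error of a mean of 2 arrays was 1.11 and the adjusted p 0.662. The arrays of tumour 647 read -4.49 and 0.86, those of tumour 663 1.58 and -3.64, and tumour 656 had no value. No pair differed by limma's contrasts, and 8 of 190 had an unadjusted p below 0.05.

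**Figure D3:**
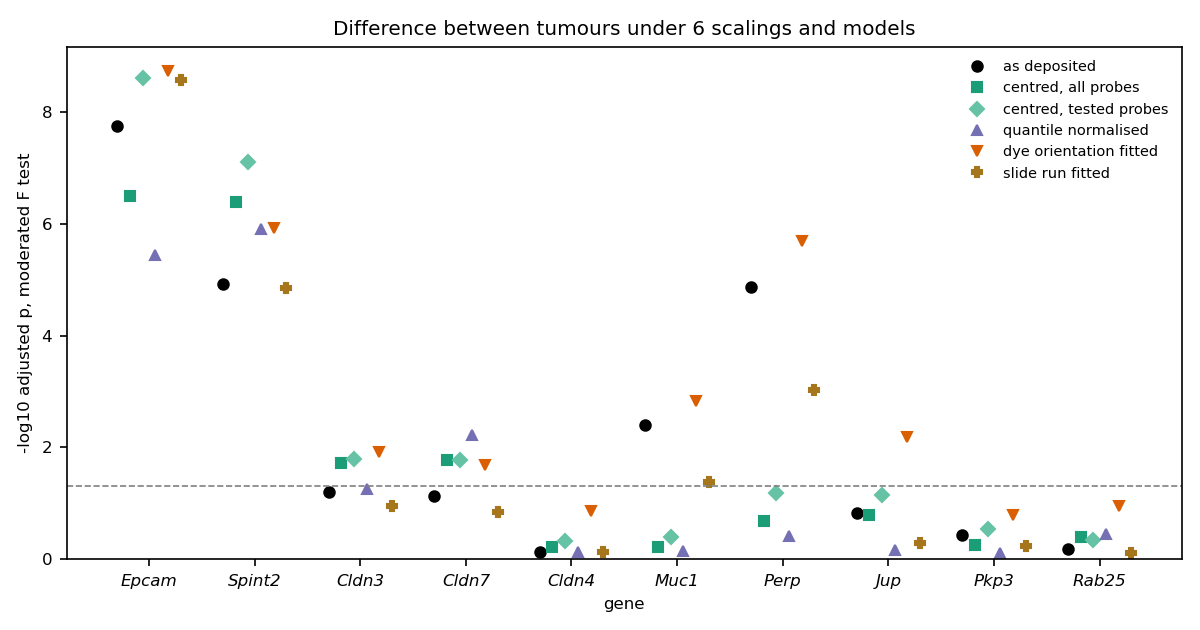
The -log10 of the adjusted p of the difference between tumours (vertical axis) for the 10 genes (horizontal axis) on the deposited scale, after 2 centrings and quantile normalisation, and with dye orientation or slide run in the model. The dashed line is the threshold of 0.05: Epcam and Spint2 lie above it in all 6 settings, Perp and Muc1 fall below it in the 3 that rescale the arrays, and Cldn3 and Cldn7 lie above it in some settings and below it in others.

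Read by tumour, the 10 genes had shared extremes without a single order. Tumour 641 was among the 5 highest for 9 of the 10 genes. Tumours 646 and 647 were among the 5 lowest for 7 of the 9 and 7 of the 10 genes with a value. Tumour 660 was among the 5 lowest for 6 genes and among the 5 highest for Rab25, there with a value on 1 array. Tumours 660 and 646 also had the lowest medians over all probes, at -0.76 and -0.65. These ranks are on the deposited scale and were not repeated after centring. In total 231 of the 2060 pairs over the 10 genes differed, which is 11.2%, against 2.03% over all probes and pairs. Perp and Muc1 gave 66 and 19 of them. After centring on the median of all probes no pair differed in Perp or Muc1, while Cldn3 and Cldn7 had 9 and 10. The 2.03% belongs to the deposited scale, and no share over all probes and pairs after centring is given beside these counts.

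The levels of Vim, which encodes the intermediate filament vimentin of mesenchymal cells, split the tumours in the same place as those of Epcam. Vim lay between 0.30 and 1.22 in tumours 644, 646, 647, 649 and 673 and between -4.84 and -3.02 in the other 16. These are the 5 tumours lowest in Epcam and in Spint2. Of the mesenchyme and fibroblast markers 7 of 10 were tested and all 7 differed between tumours. The mean level of the 7 was 1.09 to 1.75 in these 5 tumours and -4.66 to -2.35 in the other 16. The mean of 5 tested macrophage markers, of which 4 differed, was 1.94 to 3.26 in the 5 tumours and -3.30 to 0.82 in the others. Lyz2 entered that mean by 1 of its 2 probes, which as a description over all tumours had r = -0.53 with Epcam. The other Lyz2 probe had r = 0.60 and was highest in tumour 656, and it did not pass the F test (adjusted p 0.135). Of 3 tested milk genes all 3 differed, with a mean level from -0.71 in tumour 646 to 5.60 in tumour 638. Endothelial markers (2 tested, 0 called by limma, 1 at an unadjusted p below 0.05) and adipocyte markers (2 tested, 0 called, 0 unadjusted) did not pass, and no lymphocyte marker had enough values. The part of these other cell types in the levels of the epithelial genes was not tested, and in bulk tumour RNA fewer cells of a type and less RNA per cell cannot be told apart. The mean level of the 4 tested keratins was lowest in tumour 656, at -1.09, followed by tumours 647, 673, 646 and 649 at -0.67, -0.46, -0.12 and 0.12. Krt8 alone was highest in tumour 649, at 3.24, where Epcam was -2.14.

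**Figure D4:**
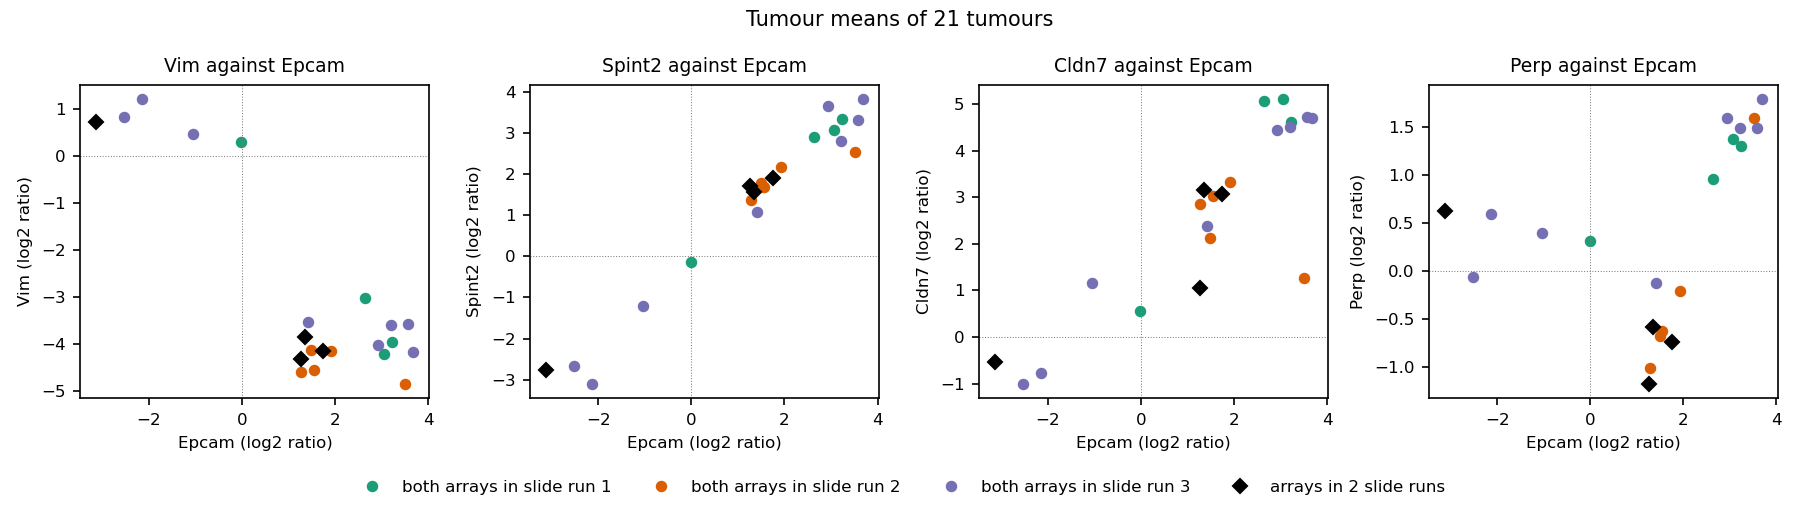
Tumour means of Vim, Spint2, Cldn7 and Perp (vertical axes, log2 ratio) against Epcam (horizontal axis, log2 ratio), 1 point per tumour, with the colour or shape giving the slide run. Vim is above 0 in the 5 tumours with Epcam below 0, Spint2 is below 0 in the same 5 tumours, Cldn7 is low in most tumours with low Epcam and also in tumour 656, and Perp is lowest at middle levels of Epcam, where most points are of run 2 or span 2 runs.

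Epcam levels fell into 3 components in a mixture model and Vim levels into 2, so no correlation was taken over all tumours as a test. Within components of 6 tumours or more, 28 relations of the genes with Epcam or Vim were computed, with 100000 permutations or exact enumeration, two-sided. The permutations treat tumours as independent. Tumours may share a line, which the labels do not give, so these p-values can be too small. None passed an adjusted p of 0.05, and 5 had an unadjusted p below 0.05. Among the 8 tumours of the middle Epcam component, Spint2 and Epcam had r = 0.73 and rho = 0.64 (exact permutation p = 0.0414 and 0.0962, adjusted 0.232 and 0.479). Without the 2 tumours farthest from the median, 653 and 664, r was 0.20, so on the deposited scale that relation rests on them. Among the 8 of the upper component the same pair had r = 0.18 (exact permutation p = 0.659). After centring on the median of all probes the values for Spint2 in the middle component became r = 0.93 with an adjusted permutation p of 0.0417. Without tumours 670 and 665, the 2 farthest after that centring, r was 0.66. Rab25 in the upper component, with 7 tumours, had r = -0.86 and rho = -0.86 with Epcam (exact permutation p = 0.0143 and 0.0238, adjusted 0.182 and 0.333). After centring on the tested probes r was -0.98 with an adjusted permutation p of 0.0149, and leaving out the 2 farthest tumours left too few for an r. Among the 16 tumours of the lower Vim component, Vim had r = 0.59 with Muc1 (permutation p = 0.0150, adjusted 0.182) and 0.55 with Cldn7 (permutation p = 0.0261, adjusted 0.182). Without the 2 farthest tumours these were 0.62 and 0.31. Perp in the upper component had r = 0.76 as deposited (exact permutation p = 0.0247, adjusted 0.182) and 0.91 after centring on all probes (adjusted 0.0417). As deposited, r was 0.12 without tumours 639 and 667, so on that scale the relation rests on them. After centring on all probes the 2 farthest tumours were 669 and 656, and without them r was 0.92.

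As a description over all 21 tumours, and with those separate components in it, the probes most like Epcam among 6811 compared were those of Spint2 (r = 0.98), Lcn2 (0.97), which encodes the secreted protein lipocalin 2, and Ly96 (0.96), which encodes the Tlr4 partner MD-2. Those most like Spint2 were Epcam (0.98), Lcn2 (0.97) and Grhpr (0.94), the last an enzyme of glyoxylate metabolism. Perp was most like Nans (0.96), Tmed3 (0.96) and Polr2k (0.96), and Muc1 most like Nfs1 (0.97), Mrpl38 (0.96) and Plac1 (0.96). An r of at least 0.8 was reached with Epcam by 1.32% of the compared probes and with Spint2 by 1.23%. With Perp it was reached by 7.31% and with Muc1 by 8.59%. The tumour median over all compared probes had r = 0.74 with Perp and 0.78 with Muc1, against 0.22 with Epcam and 0.18 with Spint2.

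The other genes of the junctions gave few tests. Of 23 tight junction genes on the array besides these claudins, 7 could be tested and 1 differed, Tjp1, which encodes the scaffold ZO-1 (adjusted p 0.0118). Tjp1 was highest in tumour 649, at 1.92, and lowest in tumour 664, at -1.56. Of 9 tested adherens junction genes of 11, 3 differed. Vcl, which encodes the actin linker vinculin, was lowest in tumour 641 at -2.57 and highest in tumour 649 at 1.01 (adjusted p 2.7e-04). Ctnna1, alpha-catenin, was highest in tumour 646 at 1.74 and lowest in tumour 663 at -1.21 (0.00204), and Ctnnb1, beta-catenin, ran from -1.49 in tumour 641 to 1.26 in tumour 653 (0.00155). The tumours highest in Tjp1, Vcl and Ctnna1 were among the 5 lowest in Epcam. Other tight junction genes were lowest there without passing the test, among them F11r, lowest in tumour 646 at -2.10 (adjusted p 0.0793), and Cxadr, lowest in tumour 647 at -4.58 (0.0844), both named after their values were seen. The mean level of the 7 tested tight junction genes was lowest in tumours 646 and 647, at -1.23 and -1.10. Tumours 664 and 663, not among the 5 lowest in Epcam, followed at -1.06 and -0.92. In tumours 649, 644 and 673, which were among those 5, it was -0.42, -0.06 and 0.23. Of 12 desmosome and envelope genes only Pkp2 and Ppl were tested, and 0 differed by limma with 1 at an unadjusted p below 0.05. Cdh1 (E-cadherin), Ocln (occludin) and Dsp (desmoplakin) had both arrays in 7, 4 and 4 tumours and were not tested.

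Of 13 genes for polarity and apical trafficking, 11 were tested and 3 differed. Llgl2, a basolateral polarity protein, was lowest in tumour 646 at -0.86 and highest in tumour 655 at 2.62 (adjusted p 2.8e-05). Prkcz, an atypical protein kinase C, ran from -2.09 in tumour 663 to 2.30 in tumour 649 (2.6e-04). Among surface glycoproteins, membrane proteases and inhibitors, 3 of 13 were tested and Ly6e, a lipid-anchored surface protein (0.00607), and Muc4, a transmembrane mucin (0.0392), differed. St14, the protease matriptase that Spint2 inhibits, and the related inhibitor Spint1 had both arrays in 5 and 8 tumours and were not tested. Of 10 regulators of the epithelial state, 3 were tested and Grhl2, a Grainyhead factor, differed, from -0.36 in tumour 646 to 4.97 in tumour 667 (9.1e-05), the tumours that were also lowest and highest in Epcam. Of 6 keratins, 4 were tested and Krt19 (2.0e-04), Krt8 (0.00631) and Krt18 (0.0395) differed. Over these 7 lists 13 of 39 tested genes differed, where a gene counts if any of its probes passed. The 19.2% of all probes is a share of single probes, so the 2 are not the same measure.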

How the data were processed

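The authors deposited 1 table of log2 ratios between the dyes for 42 two-colour arrays. The labels' protocols give RNAlater storage, TRIzol extraction, Cy3 and Cy5 labelling and dye-swapped hybridisation. The log2 scale was read from the deposited values, while scanner processing, background correction, normalization and the dye order of each pair were not given in the sources used. The 10 genes, the lists and the tests were chosen with earlier results of these data known.

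Of 22800 probes, 16874 had 1 gene symbol in the platform annotation, which is old, 134 had several and were not named, and 5792 had none. By gene identifier, 16196 matched a current entry. A probe shared by Muc1 with its neighbours was not used. Blank cells were 24.1%, and 15512 values (2.14%) at a repeated top of 16.61 were treated as missing. The arrays of a pair were taken as opposed, and each pair was turned by the sign of its weight in the leading eigenvector of the correlation matrix of the 21 within-pair differences. The overall sign was set by Myc, so the direction against the reference and the authors' centring stay unknown.

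Probes with both arrays in at least 15 tumours (9407, with 7629 genes) were fitted with the tumour as a factor in R 4.3.3 with limma 3.58.1 (moderated F, Benjamini-Hochberg, threshold 0.05), without centring. Pairwise contrasts were adjusted over all probes and pairs. A repeated probe set of 232 Gapdh spots was averaged, list genes with several probes counted as called where any probe passed and were read by the probe with the largest F (of the 2 Lyz2 probes, 1 passed), and components came from mclust 6.1.1. Named besides the 10 genes are the 3 probes with the highest Pearson r for each gene that differed, up to 3 called genes per list, the marker lists, and anchor genes that could not be tested. The values of 1 called list gene are not reported here. Slide runs of 9, 13 and 20 arrays are blocks of running numbers in the titles, and 4 tumours span 2 runs. The name slide run was given here and is not in the labels. The steps were tested on simulated data. With 2 arrays for each tumour, their number limits the precision.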

Additional observations from a re-analysis of the deposited data

How the results depend on the processing

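Of the 10 genes, 4 differed between tumours as deposited, and the same number after centring on the median of all probes, with Cldn3 and Cldn7 in place of Perp and Muc1. The count was 7 with dye orientation as a covariate (Cldn3, Cldn7 and Jup added), and 0, 0 and 2 within slide runs 1, 2 and 3 alone (5, 2 and 5 at an unadjusted p below 0.05 by limma). Over all probes the 1804 became 4132 with dye orientation, 710 with slide run as a block, 597 when both arrays of 2 tumours were enough, and 0, 0 and 208 within the runs (1151, 585 and 1451 unadjusted). The runs hold 4, 5 and 8 tumours. The count over all probes after centring is not reported here, so the 4 genes called after it have no background share beside them. Without a single array the counts were 4 to 6 genes and 1448 to 2867 probes, the highest without the second array of tumour 660, and without a single tumour 4 to 6 genes and 1525 to 2132 probes. Called genes of the 7 other lists became 15 after centring on the median of all probes, again without a background share, and 26 with dye orientation. Relations that passed numbered 2 and 3 after centring on all and on tested probes and 1 after quantile normalisation, and 0 with any tumour left out. Adjusted p-values of Epcam and Spint2 stayed below 0.05 in every setting except runs 1 and 2 alone (0.133 and 0.700 for Epcam, 0.133 and 1.000 for Spint2). The cause of these shifts was not tested.

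No value was had for relations within single runs or for pairs of tumours in Cldn3, Cldn4, Cldn7 and Rab25 with slide run as a block, since these could not be estimated. No paired analysis was possible by replicate number because the replicate numbers only name the arrays of a tumour in accession order. The arrays of a tumour are a dye-swapped pair, and the main test did not include their orientation. The fit with dye orientation as a covariate did, with the inferred orientation, and called 7 genes and 4132 probes. Cldn3, Cldn4, Cldn7 and Rab25 lacked values on some arrays and had standard errors above 1.10. They also had the largest mean dye effects of the genes measured here, at 0.62, 0.91, 0.53 and 0.85. The signal over background behind the ratios is unknown.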
